A study of Homo sapiens with 6 samples.

Results

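Actin filaments, microtubules and intermediate filaments make up the cytoskeleton of human cells, and 7 genes for their abundant building blocks are described here across 3 immunoprecipitations (IPs) of an eCLIP experiment on the RNA-binding protein Angel1. They comprise the actin genes ACTB and ACTG1, the α-tubulin genes TUBA1B and TUBA1A, the β-tubulin genes TUBB and TUBB4B, and the vimentin gene VIM. The genes were picked by name, and a cluster of reads was taken as a member when it overlapped the gene by at least 1 nt on the gene's strand. By this rule, 172 of the 205520 clusters in the 3 lists were members. In FLAG-Angel1 replicate 1 there were 75 of 102843, in FLAG-Angel1 replicate 2 there were 85 of 96960, and in the control there were 12 of 5717.

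In eCLIP, UV light links proteins to the RNA they touch, the protein of interest is immunoprecipitated, and the attached RNA fragments are sequenced (the IP) beside a size-matched input made without the immunoprecipitation. The cells were Flp-In T-REx HEK293, a human embryonic kidney line with a fixed site for a tetracycline-inducible construct. All cells received 5 ng/mL tetracycline for 24 h and, by the labels, UV light of 254 nm at 400 mJ/cm2. The 6 libraries were those of 3 IPs, 2 replicate FLAG-Angel1 IPs and 1 FLAG-only control IP (FLAG-Ctrl in the plots), each with its input. The labels name FLAG-Angel1 as the genotype of the control too, whereas the methods describe control cells that express no FLAG fusion, and the methods also mention a sample without UV that no label marks. Whether the replicates were separate cultures is not stated.

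Angel1 is a homolog of the CCR4 deadenylase whose own activity on RNA is not well defined, and the study asked which RNAs it touches. Actin monomers polymerize into microfilaments, heterodimers of α- and β-tubulin polymerize into microtubules, and vimentin forms intermediate filaments. All 3 kinds of protein come from abundant mRNAs. Tubulin mRNAs are also known for autoregulation, in which TTC5 recognizes the first residues of the nascent tubulin chain on the ribosome and, through SCAPER, brings the CCR4-NOT deadenylase to the mRNA being translated.

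Each cluster carried 2 values from the authors, namely a log2 fold, which compares IP with input reads, and the −log10 of its P. A cluster was called enriched when its log2 fold was positive and P passed 0.05. The lists hold no reads, but the log2 fold and P of a cluster together fit whole numbers of reads at 1 pair of library sizes. Those sizes were 3396701 IP and 722085 input reads in replicate 1, 2543630 and 2812210 in replicate 2, and 209788 and 3249250 in the control. Reads given below are inferred in this way, and intervals are 95% Clopper-Pearson intervals of the log2 fold that cover counting error only. An inferred input value of 1 may stand for 0 or 1 reads. With 1 control IP, and with clusters that are not replicates, no test between libraries was possible, and all comparisons are descriptions.

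Clusters on the 7 genes were mostly enriched in the FLAG-Angel1 IPs. In replicate 1, 53 of the 75 were enriched (70.7%), against 11.7% of all clusters of that library. In replicate 2, 83 of the 85 were enriched (97.6%), against 40.7% of all. In the control the share was 10 of 12 (83.3%), against 91.8% of all control clusters. At the threshold of 0.001, 46 of the 75 passed in replicate 1 and 77 of the 85 in replicate 2, where 4.22% and 17.0% of all clusters passed.

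Member clusters of replicate 1 had a median log2 fold of 1.53, where all its clusters had 0.57, and those of replicate 2 had 2.24, where all had 1.73. Above their library's median lay 57 of the 75 member clusters in replicate 1 and 75 of the 85 in replicate 2. In the control, none of the 12 reached the library's median of 5.20. Folds of the IPs are thus not on a common scale, and comparisons between IPs below are of the listed folds. Control clusters with inferred reads held a median of 4 IP reads over 2 input reads, and the control's members 5.5 over 19. The part of input depth in the lower folds of these members was not tested. The control's members ranged from 1.00 to 4.37.

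The clusters on the 7 genes also held more reads than most. Among members with inferred reads, the median was 256.5 IP reads over 19 input reads in replicate 1 and 92 over 20 in replicate 2. Over all clusters with inferred reads, it was 17 over 1 and 8 over 2. Reads were inferred only for log2 folds above 0. In replicate 1, 70144 of the 102843 clusters and 66 of the 75 members had them, and in replicate 2, 94115 of 96960 and all 85 members. Among clusters with 5 to 19 input reads and a fold above 1, 23 of 30 members were enriched in replicate 1 (76.7%), against 47.9% of all clusters in that range. With 20 or more input reads the shares were 93.5% (29 of 31) and 85.5%. Only clusters with inferred reads enter these shares. In replicate 1 these were 66 of the 68 members with a fold above 1, and the others, on TUBA1B and TUBB, were not enriched. In replicate 2, all 36 members with 5 to 19 input reads and all 43 with 20 or more were enriched, where 68.1% and 92.7% of all clusters were. The part of read depth in the higher shares of the 7 genes was thus measured only within these ranges and was otherwise not tested. The libraries come from bulk lysates, in which fewer cells with an RNA and less RNA per cell cannot be told apart.

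**Figure D1:**
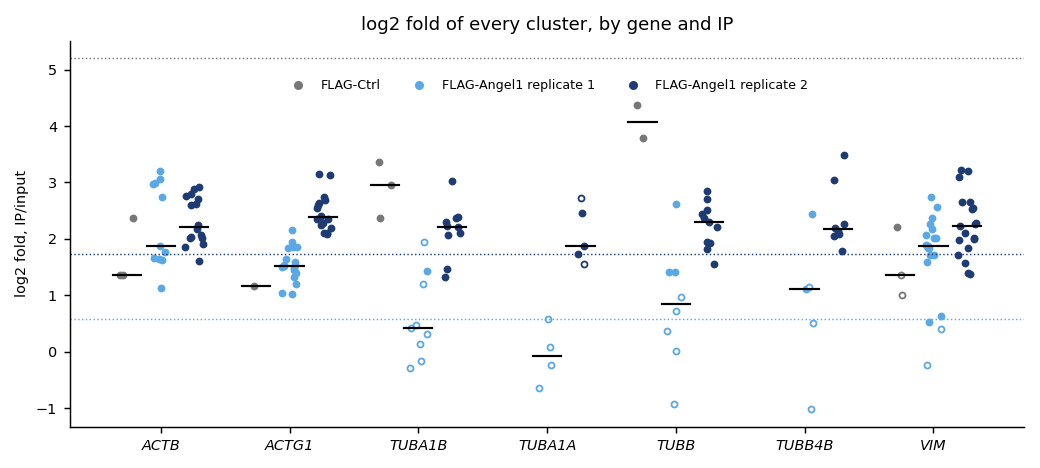
The y axis gives the log2 fold of IP over input of every cluster on the 7 genes (x axis), with filled points for enriched clusters, open points for others, a black bar for the median of a gene in a library and a dotted line for the median of all clusters of that library. All actin clusters were enriched, whereas in replicate 1 most clusters on TUBA1B and TUBA1A were not, and all control points lie below the control's dotted line at 5.20.

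ACTB, which encodes β-actin, lies on chromosome 7 from 5566779 to 5570232 on the minus strand of GRCh37. All of its clusters were enriched, of which replicate 1 had 11, replicate 2 had 16 and the control 3. Positions are given below as the distance in nt from the first base of the gene in the direction of transcription, so that introns count too. Exons and UTRs of GRCh37 were not analysed here. In replicate 1 the clusters covered 301 nt (8.71% of the gene), and in replicate 2 they covered 971 nt (28.1%).

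The start of ACTB carried one of the strongest signals of replicate 1. There, 3 abutting clusters from -1 to 77 nt (chromosome 7, 5570155 to 5570233) reached log2 folds of 2.74, 2.97 and 3.06. The widest held 1632 IP reads over 52 input reads (interval 2.34 to 3.17). Replicate 2 had a cluster at 4 to 77 nt with a log2 fold of 1.61 (207 IP reads over 75, interval 1.22 to 2.01), and the control had one at 41 to 77 nt with 1.37 (6 over 36, interval -0.17 to 2.63). The intervals of the replicates were apart, with replicate 1 higher, and the control's interval overlapped both.

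The same order was found at the next site, from 938 nt. The highest log2 fold of ACTB in replicate 1 was 3.21 at 938 to 953 nt, with 1562 IP reads over 36 (interval 2.73 to 3.72) and a −log10 P of 57.1. By P, this cluster had rank 27 among the 102843 of its library. Replicate 2 had 2.02 at 938 to 952 nt (213 over 58, interval 1.60 to 2.47), and the control had 1.37 over 938 to 1034 nt (11 over 66, interval 0.30 to 2.30). Both sites were therefore enriched in all 3 IPs, with the highest listed fold in replicate 1. Beside the library medians, the control's 1.37 lay below 5.20, and the folds of replicate 1 lay above 0.57. In replicate 2, 1.61 at the start of the gene lay below the median of 1.73, and 2.02 lay above it. At 938 nt, the control's interval overlapped that of replicate 2 and was apart from that of replicate 1.

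Further downstream, the order of the replicates was the reverse in all 5 pairs of overlapping clusters, with overlapping intervals. Over all such pairs of the series, replicate 2 was higher in 81.3%, with a median difference of 1.10. From 1007 nt on, replicate 1 had log2 folds of 1.14 to 1.87, and its last cluster was at 1883 nt. Replicate 2 had folds of 1.85 to 2.93 from 998 nt on, with the highest value of 2.93 at 2595 to 2597 nt (55 IP reads over 8, interval 1.85 to 4.21) and the last cluster ending at 2851 nt. Near that end, the control had another ACTB cluster at 2455 to 2516 nt, with a log2 fold of 2.37 on 5 IP reads over 15 (interval 0.55 to 3.90). The Spearman correlation of log2 fold with distance was -0.74 across the 11 clusters of replicate 1 and 0.58 across the 16 of replicate 2. These clusters belong to 1 gene and abutting ones share reads, so the correlations are descriptions.

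ACTG1 encodes γ-actin, the other cytoplasmic actin, on chromosome 17 from 79476997 to 79479892 on the minus strand. Replicate 1 had 18 clusters there, replicate 2 had 16 and the control 1, and all were enriched. They covered 921 nt (31.8% of the gene) in replicate 1 and 997 nt (34.4%) in replicate 2. Log2 folds ranged from 1.02 to 2.16 in replicate 1 and from 2.08 to 3.15 in replicate 2.

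The smallest P on ACTG1 fell at the same place in both replicates. In replicate 2, the cluster at 793 to 953 nt had 511 IP reads over 106, a log2 fold of 2.41 (interval 2.11 to 2.73) and a −log10 P of 68.1, the highest of the 7 genes in any library. In replicate 1, the cluster at 742 to 874 nt had 1305 over 89, a log2 fold of 1.64 (interval 1.33 to 1.97) and a −log10 P of 27.0. The only ACTG1 cluster of the control lay there too, at 832 to 955 nt, with 11 over 76 and a log2 fold of 1.16 (interval 0.10 to 2.08). Here the listed fold was highest in replicate 2, whereas at the start of ACTB it was highest in replicate 1. Over all clusters, replicate 2 had a median of 1.73 and replicate 1 one of 0.57, and listed folds are not adjusted for this.

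Other ACTG1 values were close to one another within a library. The highest fold of replicate 1 was 2.16 at 1350 to 1426 nt (420 IP reads over 20, interval 1.51 to 2.88). The highest of replicate 2 was 3.15 at 724 to 730 nt (145 over 18, interval 2.44 to 3.95). At the start of the gene, from 66 nt, replicate 1 had 1.49 and 1.94 and replicate 2 had 2.24 and 2.29. ACTB and ACTG1 encode near-identical proteins and have processed pseudogenes, but their nucleotide sequences were not compared here. The handling of reads that map to several places is not given in the sources used here. Reads could therefore have been lost from either gene or moved between them.

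VIM encodes vimentin, an intermediate filament protein, spanning 17270258 to 17279592 on chromosome 10, plus strand. Replicate 1 had 20 clusters with 18 enriched, replicate 2 had 19 with all enriched, and the control 3 with 1 enriched. The clusters fell into groups, at 1017 to 1714 nt, at 5329 to 5672 nt, at 6434 to 6559 nt and at 6910 to 7128 nt, with 1 further cluster of 3 nt in replicate 2 at 2447 to 2449 nt. No library had a cluster before 1017 nt or after 7128 nt.

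The highest log2 fold of replicate 1 lay in the first group. It was 2.73 at 1097 to 1102 nt, with 1691 IP reads over 54 (interval 2.34 to 3.15) and a −log10 P of 55.7, and the most IP reads of any member cluster, 1866, were found at 1073 to 1096 nt (over 77, log2 fold 2.37). Replicate 2 had 1.37 at 1080 to 1173 nt (370 over 158, interval 1.10 to 1.65), a lower fold at these bases. Its own highest fold was 3.21 at 5531 to 5562 nt (109 over 13, interval 2.38 to 4.17), where replicate 1 had 2.17 at 5533 to 5613 nt (254 over 12, interval 1.34 to 3.14). The replicates therefore had their highest VIM folds in different groups.

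The downstream groups of VIM differed between replicates to different extents. The 3 pairs of overlapping clusters from 5533 nt differed by at most 0.36 in log2 fold. At 6436 and 6501 nt, replicate 1 had 0.63 and 0.52, and the overlapping clusters of replicate 2 had 1.98 and 2.55, with intervals apart. At 6942 nt, replicate 1 had 1.84 (437 IP reads over 26, interval 1.27 to 2.47) and replicate 2 had 2.65 (216 over 38, interval 2.15 to 3.19), with overlapping intervals. In the control, 1 cluster was enriched, at 1637 to 1714 nt, with a log2 fold of 2.22 on 6 IP reads over 20 (interval 0.61 to 3.58). The others, at 1344 to 1419 nt and 6434 to 6503 nt, had folds of 1.00 and 1.37 on 4 IP reads each and did not pass.

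**Figure D2:**
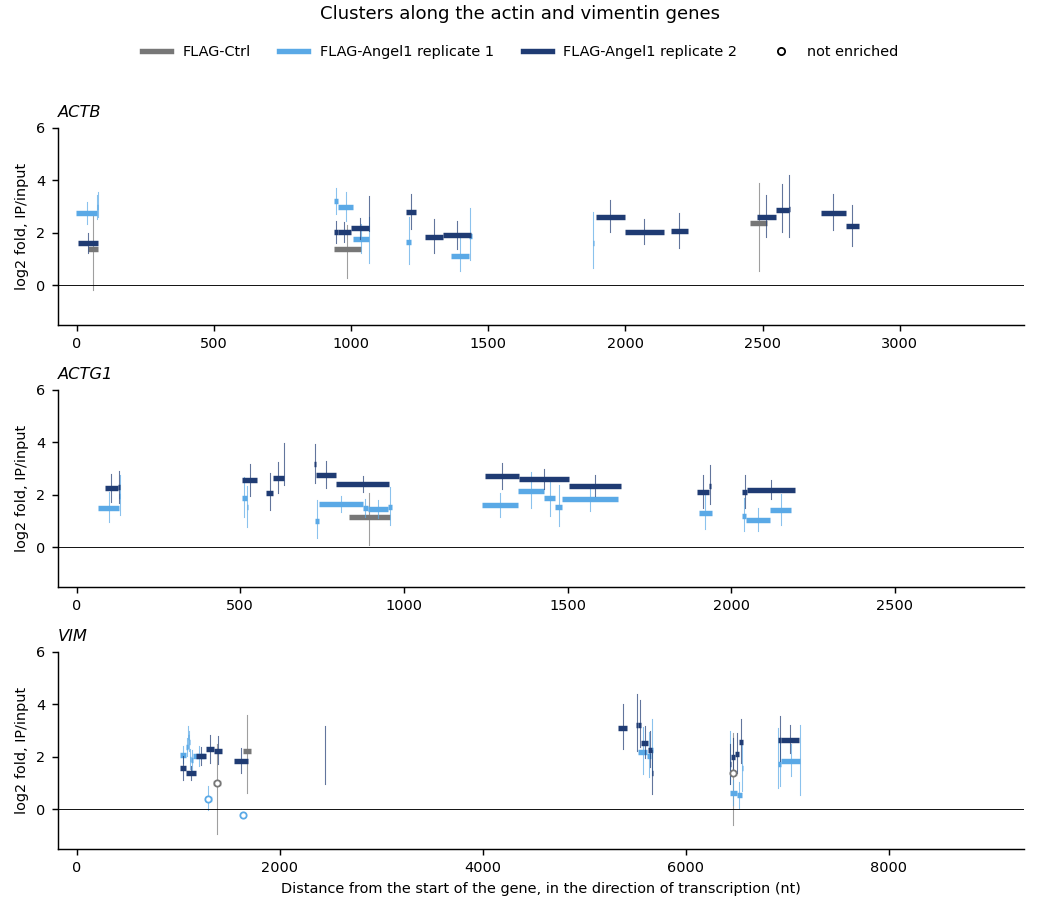
Horizontal bars mark the clusters on ACTB, ACTG1 and VIM, placed on the x axis by distance from the gene's start in nt and on the y axis by the log2 fold of IP over input, with vertical lines for 95% counting intervals and open circles for clusters that were not enriched. In replicate 1 the folds of 2.74 to 3.21 in the first 1006 nt of ACTB stand above all its later clusters, and on ACTG1 the bars of replicate 2 lie above those of replicate 1.

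TUBA1B encodes an α-tubulin and lies on chromosome 12 from 49521566 to 49525304 on the minus strand. The replicates differed here in the number of calls. In replicate 2, 10 of 10 clusters were enriched, with log2 folds of 1.33 to 3.02. In replicate 1, 1 of 9 was, although all 9 overlapped a cluster of replicate 2. The replicates thus shared the positions, and the folds of replicate 1 ranged from -0.29 to 1.94.

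The median number of IP reads on TUBA1B was lower than on ACTB, ACTG1 and VIM, at 45.5 in replicate 1 and 36.5 in replicate 2. Over all clusters with inferred reads, it was 17 and 8. Clusters of replicate 1 held 36 to 59 IP reads over 2 to 9 input reads where these could be inferred, and those of replicate 2 held 19 to 85 over 3 to 19. The enriched cluster of replicate 1, at 2583 to 2677 nt, had a log2 fold of 1.44 on 51 IP reads over 4, with a −log10 P of 1.31 and an interval that reached 0 (-0.01 to 3.37). At the same upstream edge, replicate 2 had its highest fold, 3.02 at 2583 to 2614 nt (22 over 3, interval 1.28 to 5.40). The largest −log10 P in replicate 2 was 11.3, at 132 to 225 nt (85 over 19, log2 fold 2.31), whereas replicate 1 had a fold of -0.16 at 155 to 223 nt.

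All 3 control clusters on TUBA1B were enriched. That at 1950 to 2021 nt had a log2 fold of 2.37 (5 IP reads over 15), and the abutting clusters at 2131 to 2140 nt and 2141 to 2143 nt had 2.95 and 3.37, on 4 IP reads each over 8 and 6. At these bases replicate 1 had 0.32 and 1.19, neither enriched, and replicate 2 had 2.39 and 1.33, both enriched. The control thus had signal at TUBA1B on 4 to 5 reads, and 1.33 (34 over 15, interval 0.41 to 2.31) was the lowest fold of replicate 2 on this gene.

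TUBA1A encodes a closely related α-tubulin on the same chromosome and strand, from 49578580 to 49583107. It had the fewest clusters and reads of the 7 genes. Replicate 1 had 4 clusters, none enriched, with log2 folds of -0.65, -0.23, 0.088 and 0.57, and those with a fold above 0 held 5 and 7 IP reads over an input value of 1. Replicate 2 had 5 clusters with 6 to 15 IP reads over 1 to 5, of which 3 were enriched, at log2 folds of 1.73, 2.47 and 1.88. The highest of these, 2.47 at 2489 to 2541 nt, rested on 10 reads over 2 (interval 0.24 to 5.70). The control had no cluster on TUBA1A, in a library that listed 5717 clusters in all. The folds of TUBA1A and TUBA1B were not tested against each other. These genes encode near-identical proteins, and where their nucleotide sequences are alike, which was not analysed here, reads can be hard to assign.

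TUBB encodes a β-tubulin spanning 30688157 to 30693199 on chromosome 6, plus strand. In replicate 2 all 11 of its clusters were enriched, with log2 folds of 1.55 to 2.85, and in replicate 1, 3 of 8 were. Replicate 2 had clusters at the start of the gene, at -13 to 58 nt (log2 fold 2.37, 84 IP reads over 18) and at 137 to 182 nt (1.55, 45 over 17), where neither replicate 1 nor the control had any. Its highest fold was 2.85 at 3190 to 3253 nt (65 over 10, interval 1.88 to 3.97). Replicate 1 had 0.97 at 3202 to 3229 nt, on 46 over 5 (interval -0.36 to 2.66), and this cluster was not enriched.

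A TUBB site at 3055 to 3171 nt (chromosome 6, 30691212 to 30691328) was the strongest control signal on the 7 genes. The control had abutting clusters at 3078 to 3115 nt and 3116 to 3171 nt, with log2 folds of 3.78 and 4.37 on 16 IP reads each over 18 and 12 (intervals 2.72 to 4.84 and 3.20 to 5.58). Their −log10 P values of 10.6 and 12.3 made them the only control members past 0.001. The highest TUBB fold of replicate 1 lay at the same place, 2.61 at 3055 to 3170 nt (144 over 5, interval 1.36 to 4.26), and replicate 2 had 2.22 at 3056 to 3135 nt (80 over 19, interval 1.48 to 3.02). The listed FLAG-Angel1 folds at this site were thus not above the control's. The interval of replicate 1 overlapped both of the control's, while that of replicate 2 overlapped the first and was apart from the second. Set beside their own library's median, the control's folds lay below 5.20, whereas those of replicates 1 and 2 lay above 0.57 and 1.73.

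Downstream, replicate 2 had TUBB folds of 1.92 to 2.51 between 3305 and 4046 nt. Replicate 1 had 1.42 at 3495 to 3677 nt (277 IP reads over 22, interval 0.79 to 2.12) and 1.40 in the next cluster, and after these 0.37 and 0.02, which were not enriched. At 3323 to 3413 nt its fold was -0.93. The control had no cluster in that stretch.

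TUBB4B, another β-tubulin gene, spans 140135711 to 140138159 on chromosome 9, plus strand. Enriched were 8 of 8 clusters in replicate 2 and 2 of 5 in replicate 1, and the control had no cluster. Replicate 2 had the highest fold of any FLAG-Angel1 cluster on the 7 genes, 3.49 at 462 to 553 nt, with 71 IP reads over 7 (interval 2.37 to 4.85). At the same bases, replicate 1 had 1.14 (52 over 5, interval -0.17 to 2.83) and 0.50 (60 over 9, interval -0.52 to 1.70), neither enriched. The interval of replicate 2 was apart from the latter and overlapped the former.

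At the start of TUBB4B the folds were nearer to each other. Replicate 1 had its highest value there, 2.44 at 27 to 155 nt (153 IP reads over 6, interval 1.28 to 3.91), and replicate 2 had 1.78 at 117 to 147 nt (31 over 10, interval 0.71 to 2.97) and 2.26 at 148 to 157 nt (26 over 6). The other enriched cluster of replicate 1, at 2213 to 2326 nt (log2 fold 1.11, 112 over 11), had no counterpart in replicate 2, whose last cluster ended at 1798 nt. Clusters of replicate 2 at 1245 to 1798 nt had folds of 2.04 to 2.20 and none in replicate 1. TUBB and TUBB4B encode similar proteins, and the same uncertainty about shared reads holds as for the actins.

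**Figure D3:**
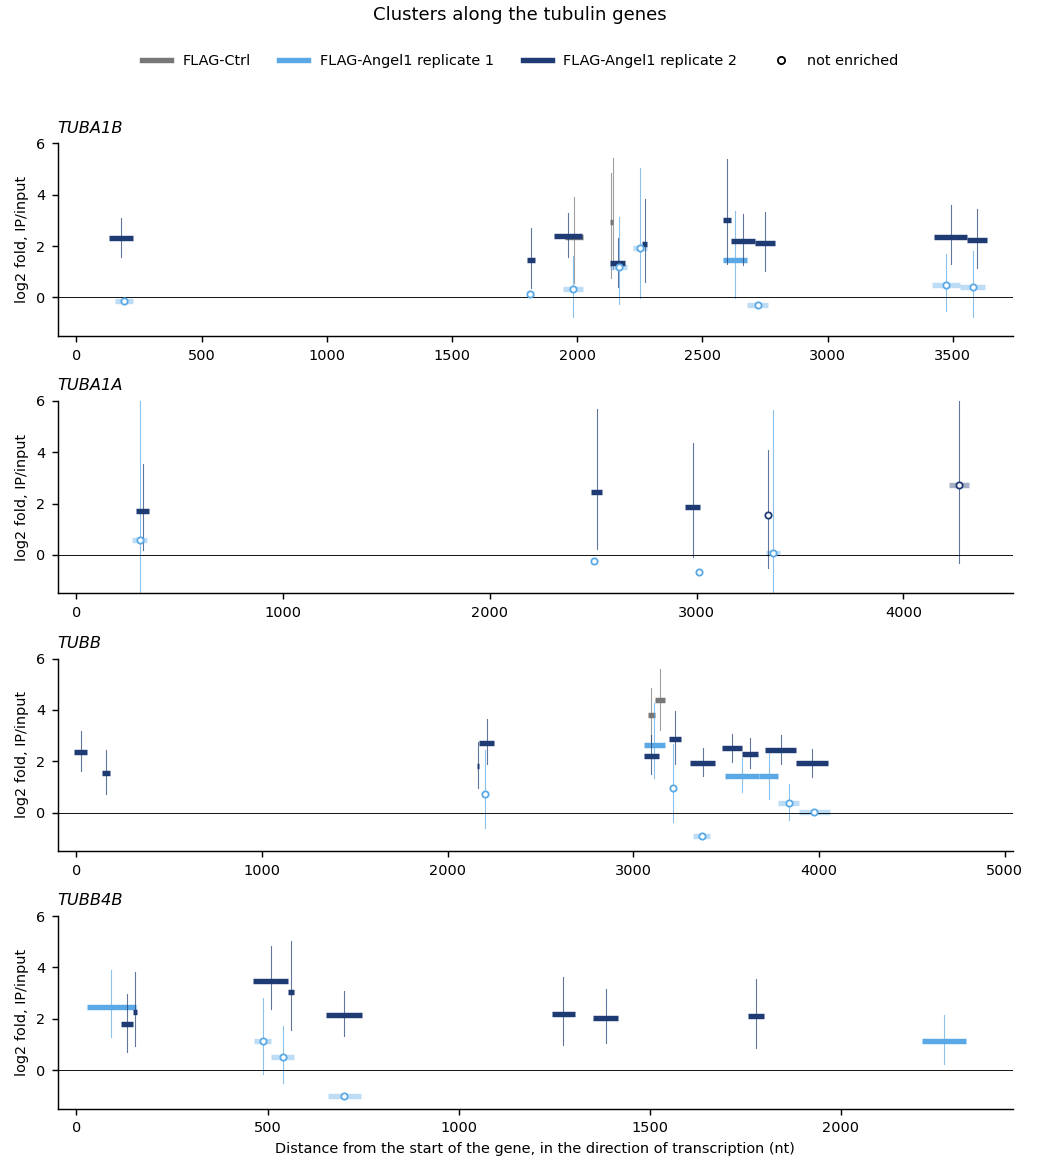
The 4 tubulin genes are drawn with distance from the gene's start in nt on the x axis, the log2 fold of IP over input on the y axis, horizontal bars for clusters, open circles for clusters that were not enriched, and vertical lines for 95% counting intervals, which end at the edges of the plot. Most clusters of replicate 1 carry open circles, and the control bars at 3.78 and 4.37 on TUBB stand above those of both FLAG-Angel1 replicates.

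Peaks reproducible between the replicates were found on 5 of the 7 genes. They were regions merged from overlapping clusters of the 2 replicates, both with P past 0.001 and a positive log2 fold. In total, 20 of the 2243 such peaks of the series were members, with 5 on ACTB, 6 on ACTG1, 6 on VIM, 2 on TUBB and 1 on TUBB4B. Abutting peaks were counted separately, so these counts too depend on how runs were split. On ACTB a peak of 3 nt at 1064 to 1066 nt abuts that at 938 to 1063 nt, and on VIM the peaks at 6910 to 6941 nt and 6942 to 7122 nt abut. TUBA1B and TUBA1A had 0, since no cluster of replicate 1 passed 0.001 on either gene. In replicate 2, 7 clusters on TUBA1B and 0 on TUBA1A passed it. Of the 20 peaks, 4 overlapped an enriched control cluster (20%), against 17.2% of all 2243. These were 2 on ACTB, 1 on ACTG1 and 1 on TUBB.

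For each peak, a replicate was taken at its highest cluster and the lower of the 2 replicate values was used. This lower log2 fold had a median of 1.84 over the 20 peaks and 2.07 over all. On ACTB, the peak at 938 to 1063 nt had the highest lower fold, 2.17, and the peak at the start of the gene had 1.61, with the remaining 3 peaks at 1.64 to 1.87. On ACTG1, the highest lower fold was 2.16, in the widest member peak of 424 nt at 1240 to 1663 nt. It was followed by 1.94 at 66 to 132 nt, 1.86 at 506 to 551 nt, 1.64 at 731 to 963 nt and 1.40 at 2033 to 2193 nt.

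On VIM, the peak with the highest lower fold was that at 5531 to 5672 nt, with 2.27, the highest of the 20. The next were 2.01 at 1017 to 1277 nt, 1.84 at 6910 to 6941 nt and again 1.84 at 6942 to 7122 nt, and 1.71 at 6434 to 6443 nt. On TUBB, the site shared with the control had 2.22 and the peak at 3475 to 3677 nt had 1.42. On TUBB4B, the peak at 27 to 157 nt had 2.26. None of the VIM and TUBB4B peaks overlapped an enriched control cluster. The VIM peak at 6434 to 6443 nt did lie on a control cluster that was not enriched, with a log2 fold of 1.37 on 4 IP reads over 24.

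The replicates were compared over 72 member clusters of replicate 1, each set beside the replicate 2 cluster it overlapped most. Replicate 2 had the higher log2 fold in 56 of them (77.8%), with a median difference of 0.88. Over the 54100 such pairs of the series this share was 81.3% and the median difference 1.10. Among the members, intervals were apart with replicate 2 higher in 11 pairs, apart with replicate 1 higher in 8 and overlapping in 44, while 9 pairs lacked an interval.

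By gene, the counts are set beside the share of 81.3% in the series. On ACTB, replicate 2 was higher in 5 of 10 pairs and on VIM in 10 of 19, so both directions were found within each of these genes. On ACTG1, replicate 2 was higher in 18 of 18 pairs, with intervals apart in 6. On TUBA1B it was higher in 9 of 9 pairs, of which 6 had intervals, and on TUBA1A in 4 of 4, of which 2 had intervals, and all of these overlapped. On TUBB it was higher in 7 of 8 pairs and on TUBB4B in 3 of 4, with intervals apart in 1 pair on each gene. All 8 pairs in which replicate 1 was higher with intervals apart lay on ACTB (5) and VIM (3), near the upstream clusters described above. On VIM another 3 pairs had replicate 2 higher with intervals apart. Since neighboring pairs share reads, these pairs are not independent.

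**Figure D4:**
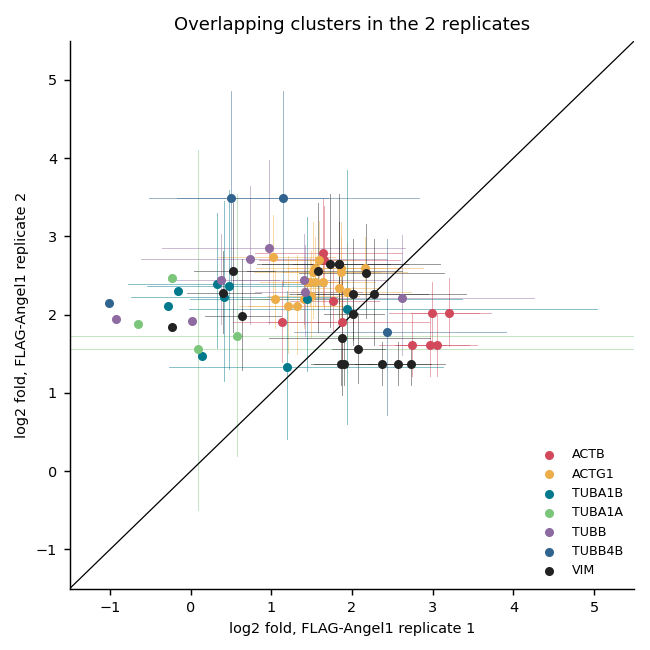
Each point is a pair of overlapping clusters, with the log2 fold of FLAG-Angel1 replicate 1 on the x axis and of replicate 2 on the y axis, colors for genes, lines for 95% counting intervals and a diagonal of equal folds. Of the 72 points 56 lie above the diagonal, and the 8 points below it whose intervals in the 2 replicates are apart belong to ACTB (5) and VIM (3).

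Of the 75 clusters of replicate 1, 72 overlapped a cluster of replicate 2 (96.0%), and of the 85 of replicate 2, 62 overlapped one of replicate 1 (72.9%). Over all clusters of the series, these shares were 52.6% and 54.6%. In bases, 3669 nt were shared, 88.6% of the 4141 nt covered in replicate 1 and 65.8% of the 5576 nt covered in replicate 2. The control's 12 clusters all overlapped a cluster of replicate 2, and 10 of them (83.3%) overlapped one of replicate 1, where 40.6% and 40.9% of all control clusters did. Conversely, 15 of the 85 clusters of replicate 2 (17.6%) and 17 of the 75 of replicate 1 (22.7%) overlapped a control cluster, against 2.66% and 2.58% of all. The members also held more reads than most clusters, as given above, and the part of depth in these shares was not tested.

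Some edges of clusters were the same to the base. With abutting clusters joined into runs, 7 of 35 overlapping pairs of runs shared their upstream edge between the replicates (20%) and 8 shared their downstream edge (22.9%), against 8.66% and 7.74% of the 49490 pairs of the series. On ACTB, the downstream edge at 77 nt and the upstream edge at 938 nt were the same in all 3 IPs, and no library had a cluster between them. Other stretches without clusters in any library, of differing length, included 132 to 506 nt on ACTG1, 225 to 1798 nt on TUBA1B and 351 to 2489 nt on TUBA1A. Such stretches also lay at 182 to 2159 nt on TUBB, 745 to 1245 nt on TUBB4B and 2449 to 5329 nt on VIM. Whether these edges are exon boundaries was not analysed here, and the part of read depth in the shares of common edges was not tested.

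On every gene the last cluster ended before the end of the gene. In replicate 2, the distance from the last cluster to the end of the gene was 602 nt on ACTB, 702 nt on ACTG1, 996 nt on TUBB, 650 nt on TUBB4B and 2225 nt on VIM, but 102 nt on TUBA1B and 213 nt on TUBA1A. In replicate 1 this distance was 713 nt on ACTG1, 986 nt on TUBB, 2206 nt on VIM and 109 nt on TUBA1B, each within 20 nt of replicate 2. It was longer than in replicate 2 on ACTB (1570 nt) and TUBA1A (1123 nt) and shorter on TUBB4B (122 nt). The ends are those of the gene spans used, which may be longer than the transcript that the cells use.

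Some clusters of 2 or 3 nt held many reads. On ACTB in replicate 1, the 3-nt cluster at 73 to 75 nt held 1546 IP reads and the 2-nt cluster at 76 to 77 nt held 1525, close to the 1632 of the 74-nt cluster they abut. Reads that cross an edge can be counted in both clusters, so reads were not summed, and counts of clusters depend on how a run was split. With abutting enriched clusters joined, the 53 enriched clusters of replicate 1 made 21 runs and the 83 of replicate 2 made 46.

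**Figure D5:**
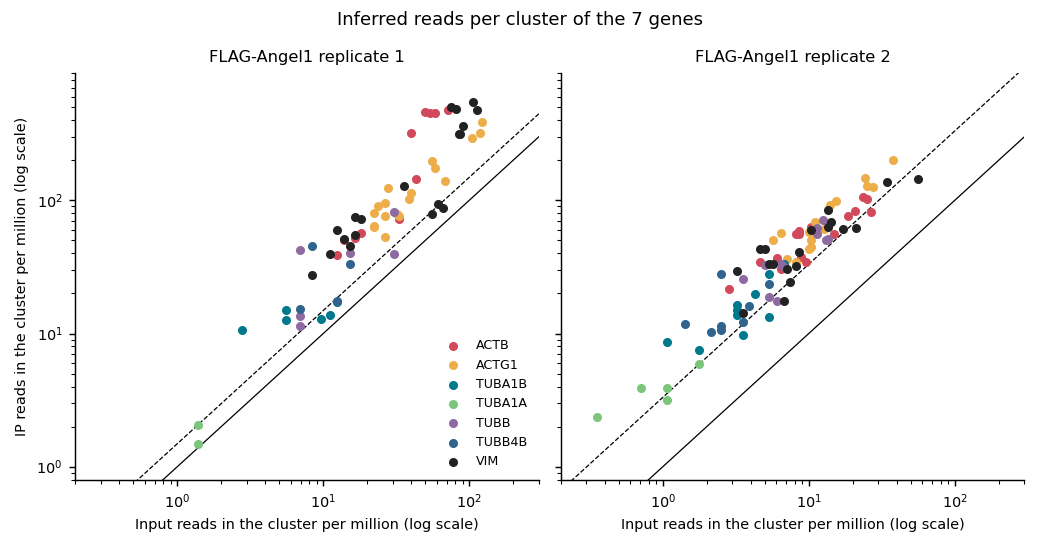
IP reads of each cluster with inferred reads (y axis, log scale) are plotted against its input reads (x axis, log scale), both scaled to a library of 1e6 reads, in the 2 FLAG-Angel1 replicates, with a solid line of equal values and a dashed line at the median fold of all clusters of the library. The points of ACTB, ACTG1 and VIM reach the highest values, up to 549 scaled IP reads in replicate 1 and 201 in replicate 2, and TUBA1A has the lowest.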

How the data were processed

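The experiment consists of 6 eCLIP libraries (3 IPs, of which 2 are FLAG-Angel1 replicates and 1 is the control, each with its input). The authors mapped the reads to GRCh37 and called clusters in each IP separately. The submitters' processing notes also name cutadapt, STAR, SAMtools and UMI-tools, with no versions. The deposited log2 values are the fold of IP over input, and the deposited −log10 values are of the authors' P, with a maximum of 400 and 0 for log2 folds of 0 or below.

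Members and lists were chosen with earlier results of these data known. The clusters named were each gene's reproducible peaks (at most 5 a gene, by the lower log2 fold), the highest enriched fold in each FLAG-Angel1 replicate, and every control cluster, with others given as ranges or to complete a site. Clusters were assigned to the gene spans, and counts, medians and covered lengths were computed with Python 3.11.15 (numpy 2.4.6, pandas 2.3.3, scipy 1.17.1, matplotlib 3.10.9). Library sizes came from the spacing of the log2 folds, and reads from the pair of whole numbers matching the log2 fold and the −log10 P (Fisher's exact test where a count or expected count was below 5, otherwise Yates' chi-square) within a tolerance of 1e-04. Reads were recovered for 99.9% of the control clusters with a fold above 1, and for 99.2% (replicate 1) and 99.7% (replicate 2) of those of FLAG-Angel1. On simulated lists, reads were recovered for 99.8% to 100% of the clusters, and all 500 planted overlaps were found. The simulated P came from the same formula, and reads were recovered at the true library sizes. These lists therefore did not check the formula or the inferred sizes themselves. Other cytoskeletal genes, exon classes and sequences were not analysed here, because no GRCh37 genome or annotation was used. Alternatives covered the thresholds, joining, strand, position, control overlap, single replicates, weighting and, chosen after seeing the data, a minimum width of 20 nt.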

Additional observations from a re-analysis of the deposited data

How the results depend on the processing

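With P past 0.001, 2 of the 10 enriched control clusters were left, and when a log2 fold of 3 or more was required there were 3 in the control, 2 in replicate 1, 8 in replicate 2 and 0 reproducible peaks. Joining abutting clusters gave 21 in replicate 1 and 46 in replicate 2, and requiring a width of 20 nt, chosen after seeing the data, gave 30 in replicate 1. Counting the clusters past 0.001 in a single replicate gave 46 to 77 in place of the 20 reproducible peaks. The number of reproducible peaks was 21 with P past 0.05 or with reciprocal overlap of 50%, and 16 without those over an enriched control cluster. The median log2 fold of TUBA1A in replicate 1, -0.07 over 4 clusters, was 0.088 weighted by width and 0.33 over clusters of at least 20 nt, and no median over enriched clusters could be given because none was enriched. The ACTB median of replicate 1 was 2.25 with that width, against 1.87. No paired analysis was possible because the values come from no test that a replicate block could enter, while each fold already sets an IP against the input of its own replicate. Depth limits the control IP, with 4 to 16 reads per member cluster, and TUBA1A, with 5 to 15 where reads were inferred.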

Other observations

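Clusters on the strand opposite to the 7 genes were rare. VIM had 4 in replicate 1, with log2 folds of -0.65 to 0.94, and 1 in replicate 2, with 0.73 on 3 IP reads over 2. TUBA1B had 1 in each replicate, with log2 folds of 0.09 (5 over an input value of 1) and 1.73 (3 over an input value of 1). None of these was enriched, and the control had none.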
